A study of Mus musculus with 20 samples.

Results

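The genes of antigen presentation by the major histocompatibility complex (MHC) were followed through the histone marks at their promoters and in their neighborhoods in mouse bone marrow. The 10 genes were 5 of the class II pathway (H2-Aa, H2-Ab1, H2-Eb1, Cd74, and Ciita) and 5 of the class I pathway (H2-K1, H2-D1, B2m, Tap1, and Tap2), out of 21938 protein-coding genes annotated by GENCODE. A peak was counted for a gene when it overlapped the annotated gene or the 10 kb on either side of it, and 401 of the 591292 peaks in 12 lists did so. The lists came from ChIP-Seq of H3K27ac, H3K4me1, and H3K4me3, with 1 list for each mark in each of 4 genotypes. Chromatin came from lineage-negative (Lin-) bone marrow, which remains after depletion of mature blood cells and is rich in progenitors. The purity of the Lin- cells was given as above 80%, so other cells could be among them. WT mice were Ep300 fl/fl without Cre, Ep300Δ/Δ mice carried Mx1-Cre and Ep300 fl/fl, Tet2-/- mice carried Ep300 fl/fl and no Cre, and Ep300Δ/ΔTet2-/- mice carried Mx1-Cre, Ep300 fl/fl, and Tet2-/-. All 4 genotypes were on a C57BL/6 background and received poly(I:C), an inducer of interferon, from 6 to 8 weeks of age. Mx1-Cre is switched on by interferon, so every Ep300-deleted library also differed from its control by the presence of Cre. The number of mice behind each library is not given in the sources used here. The methods give 2 weeks after poly(I:C) as the usual time of an experiment unless another is named, and name none for these libraries. Each genotype and mark had 1 library, so the data hold no replicate error and genotypes were compared without a test. A mark present in more of the cells and more of the mark in each cell cannot be told apart in such bulk libraries.

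Class I molecules sit on nearly all nucleated cells and present peptides from inside the cell to CD8+ T cells. H2-K1 and H2-D1 encode heavy chains, B2m the light chain they share, and Tap1 and Tap2 the transporter that carries peptides into the endoplasmic reticulum. Class II molecules present peptides from outside the cell to CD4+ T cells and are mostly made by B cells, dendritic cells, and macrophages. H2-Aa and H2-Ab1 encode the chains of I-A, H2-Eb1 the beta chain of I-E, whose alpha chain C57BL/6 mice lack, and Cd74 the invariant chain that escorts class II molecules. Their promoters hold an X box and a Y box, which bind RFX and NF-Y proteins, and the coactivator encoded by Ciita is recruited there. Ep300 encodes p300, an acetyltransferase that writes H3K27ac at active promoters and enhancers and that can act together with CIITA. H3K4me1 lies at enhancers and around promoters, and H3K4me3 lies at promoters in use.

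The sequences before the starts of 2 class II and 2 class I genes are shown so that the motifs found in each class can be seen in place. The RefSeq promoter table (GRCm38.p6, the assembly also called mm10) held 7 promoters for 6 of the 10 genes: H2-Aa, H2-Eb1, H2-K1 (with 2 starts), H2-D1, B2m, and Tap1. The 250 bases before the start lie at chr17:34287824-34288073 on the minus strand for H2-Aa, at chr17:34305617-34305866 on the plus strand for H2-Eb1, at chr17:34000348-34000597 on the minus strand for the outer start of H2-K1, and at chr2:122147437-122147686 on the plus strand for B2m. Capitals mark the motifs found on either strand, which were CTGATTGG for the Y box, ACNGATG for the core of the X box, GAAANNGAA for the interferon-response element, TTCNNNGAA for the GAS element, and GGGANNNCC for kappa B sites.
H2-Aa: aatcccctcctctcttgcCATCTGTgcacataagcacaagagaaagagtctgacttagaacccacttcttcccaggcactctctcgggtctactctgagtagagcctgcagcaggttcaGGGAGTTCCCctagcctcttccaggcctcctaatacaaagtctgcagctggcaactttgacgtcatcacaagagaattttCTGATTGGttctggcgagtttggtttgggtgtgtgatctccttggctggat
H2-Eb1: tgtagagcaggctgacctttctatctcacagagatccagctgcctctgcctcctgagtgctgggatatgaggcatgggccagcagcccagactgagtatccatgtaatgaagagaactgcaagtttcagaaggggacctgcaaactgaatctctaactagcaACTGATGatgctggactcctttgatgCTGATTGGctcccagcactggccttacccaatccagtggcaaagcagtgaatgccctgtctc
H2-K1: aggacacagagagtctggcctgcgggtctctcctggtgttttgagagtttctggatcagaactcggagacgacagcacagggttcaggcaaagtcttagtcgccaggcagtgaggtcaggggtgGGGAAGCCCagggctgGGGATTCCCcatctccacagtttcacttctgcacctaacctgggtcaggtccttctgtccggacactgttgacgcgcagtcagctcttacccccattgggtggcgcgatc
B2m: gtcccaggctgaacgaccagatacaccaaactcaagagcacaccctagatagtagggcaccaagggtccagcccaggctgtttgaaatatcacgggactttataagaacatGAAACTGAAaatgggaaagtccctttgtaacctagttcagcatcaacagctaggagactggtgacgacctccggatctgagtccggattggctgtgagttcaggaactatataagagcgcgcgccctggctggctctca
The Y box letters were present in 6 of the 7 promoters of 300 bases (250 before and 50 after the start), against 4.10% of the 32851 promoters in the table. The 2 windows of H2-K1 overlap and hold the same site, so these are 5 of 6 genes. They began at position -51 on the sense strand in H2-Aa and at position -62 on the sense strand in H2-Eb1, counted from the start. In Tap1, H2-D1, and H2-K1 they lay on the other strand, and in H2-K1 they began just past the outer start, at position 9, outside the bases shown. In H2-Eb1 the X box core began at position -88, just upstream of the Y box, and its letters were also found in H2-D1. In H2-Aa the letters lay on the other strand at position -232, far from the Y box at -51, unlike in H2-Eb1. Counting letters in any place, 3 of the 7 promoters held the core, against 9.85% of the table. The letters of the interferon-response element were found in B2m alone among the 7, at position -139, against 8.56% of the table. The kappa B letters were found in 4 of the 7, or 3 of 6 genes (H2-Aa, H2-D1, and both windows of H2-K1), against 18.6% of the table, and some stretches matched on both strands. The GAS letters were in none of the 7, against 8.30% of the table. A match describes letters only and does not show that a protein was bound.

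Class I promoters were acetylated in every genotype, whereas 1 of the 5 class II promoters held an H3K27ac peak in WT and 3 or 4 did in the mutants. Ciita had none in any list, H2-Eb1 had one in Ep300Δ/Δ alone, and the mutant counts of 3 of 5 lay near the share over all genes. A promoter here is the span of 3 kb on either side of any annotated start of the gene. The WT list held an H3K27ac peak at 1 of 5 class II promoters and at 5 of 5 class I promoters, against 47.3% of all protein-coding genes. The class II count in WT was 0 with promoters of 0.5 kb, the outer start alone, −log10 q of at least 5, or lists of equal length. In Ep300Δ/Δ the counts were 4 of 5 and 5 of 5, against 45.0% of all genes. In Tet2-/- they were 3 of 5 and 5 of 5, against 46.4%, and in Ep300Δ/ΔTet2-/- they were again 3 of 5 and 5 of 5, against 43.1%. The WT list was the longest of the 4, with 29659 H3K27ac peaks against 22727 in Ep300Δ/Δ, 24539 in Tet2-/-, and 18327 in Ep300Δ/ΔTet2-/-. The part of list length or depth in these counts was not tested. Peaks were ranked within their own list by the fold enrichment over H3, since fold values of different lists are not on 1 scale. A percentile also depends on how many weak peaks its list holds, so differences in percentile between lists are not differences in amount. The strongest class I promoter peak stood at a median percentile of 92.6 in WT, 90.4 in Ep300Δ/Δ, 89.8 in Tet2-/-, and 93.5 in Ep300Δ/ΔTet2-/-. Class II promoter peaks stood at 1.5 in WT (H2-Ab1), at 35.6 to 57.3 in Ep300Δ/Δ, at 15.8 to 53.9 in Tet2-/-, and at 16.5 to 43.9 in Ep300Δ/ΔTet2-/-. By its strongest promoter peak, every class II gene thus ranked below every class I gene of the same list.

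**Figure D1:**
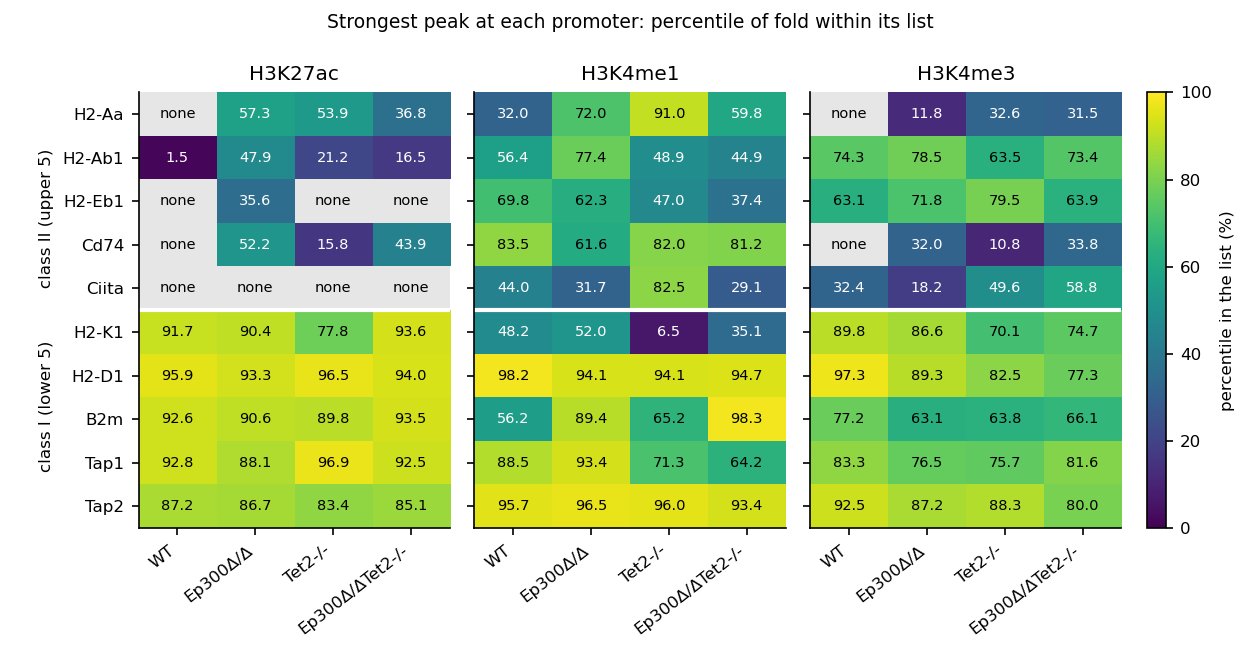
Percentile, within its own list, of the strongest peak at each promoter of the 10 genes (rows) in the 4 genotypes (columns) for H3K27ac, H3K4me1, and H3K4me3; gray cells marked none held no peak. The 5 class I genes were called throughout, while 4 of the 5 class II genes had no H3K27ac peak in WT.

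Of the 4 class II genes without an H3K27ac promoter peak in WT, 3 had one in Ep300Δ/Δ (H2-Aa, H2-Eb1, and Cd74), 2 in Tet2-/- (H2-Aa and Cd74), and 2 in Ep300Δ/ΔTet2-/- (the same 2). Among the 11553 protein-coding genes without such a peak in WT, the shares were 2.63%, 3.65%, and 2.86%. These 3 comparisons share the WT list and are not independent of each other. In all 3 mutant lists together it was 2 of the 4 genes, against 0.848% of the 11553. In the other direction, none of the 6 genes acetylated in WT (H2-Ab1 and the 5 class I genes) was without a promoter peak in any mutant. Of the 10385 genes with a WT peak, 7.96% had none in Ep300Δ/Δ, 6.09% none in Tet2-/-, and 12.1% none in Ep300Δ/ΔTet2-/-. Between Tet2-/- and Ep300Δ/ΔTet2-/-, 0 of 8 genes lost their promoter peak, against 10.2% of all genes with one.

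H2-Aa, the alpha chain of I-A (chr17:34282744-34287823, minus strand), had no H3K27ac peak within 3 kb of a start in WT. In Ep300Δ/Δ a peak of 236 bp spanned a start, with its summit 97 bp downstream of a start and at percentile 57.3. In Tet2-/- the peak over the start was 327 bp wide, with its summit 64 bp downstream and at percentile 53.9, and a second peak of 555 bp lay inside the gene. In Ep300Δ/ΔTet2-/- 1 peak of 1488 bp covered the same span, with its summit 85 bp downstream and at percentile 36.8. The summits lay close together, between 34287680 and 34287713. H3K4me3 was likewise called in the mutants alone, with no peak in WT, 1 of 217 bp at percentile 11.8 in Ep300Δ/Δ, 1 of 237 bp at percentile 32.6 in Tet2-/-, and 2 in Ep300Δ/ΔTet2-/-, the stronger at percentile 31.5. H3K4me1 was already called over the start in WT, at percentile 15.9, and stood at 72.0 in Ep300Δ/Δ, 91.0 in Tet2-/-, and 59.8 in Ep300Δ/ΔTet2-/-. These H3K27ac and H3K4me3 peaks lay mostly downstream of the start. Of the 300 bases around the start, H3K27ac peaks covered 0 in WT, 9 in Ep300Δ/Δ, 107 in Tet2-/-, and 93 in Ep300Δ/ΔTet2-/-.

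Cd74, the invariant chain (chr18:60803848-60812652, plus strand), had neither an H3K27ac nor an H3K4me3 peak anywhere in its window in WT. In Ep300Δ/Δ it held 6 H3K27ac peaks that together covered 2213 bp, the strongest 726 bp wide and at percentile 52.2. Only this strongest peak had a −log10 q of at least 5 (7.01), and the lowest was 1.61. Another 1 of them spanned a start, that of a transcript with a retained intron at 60803905, and not the coding starts. In Tet2-/- it held 2, at percentiles 0.2 and 15.8, both downstream of the start, and the weaker had a −log10 q of only 0.632, which does not pass the q of 0.05 that the methods state. In Ep300Δ/ΔTet2-/- it held 1 peak of 1228 bp at percentile 43.9, with its summit 146 bp from the nearest start. H3K4me3 peaks numbered 2 in each mutant, and the stronger of the pair stood at percentile 32.0 in Ep300Δ/Δ, 10.8 in Tet2-/-, and 33.8 in Ep300Δ/ΔTet2-/-. H3K4me1 was called near the start or inside the gene in all 4, with the strongest promoter peak at percentiles of 61.6 to 83.5, and it spanned a start in Tet2-/- alone. Cd74 therefore carried H3K4me1 alone in WT and all 3 marks in each mutant, and its H3K27ac and H3K4me3 peaks ranked lowest in Tet2-/-.

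H2-Aa and Cd74 were the only 2 of the 8193 protein-coding genes without either promoter mark in WT that had both H3K27ac and H3K4me3 promoter peaks in all 3 mutant lists, a share of 0.0244%. This combination was chosen after the values were seen. An H3K4me3 promoter peak was called for 3 of 5 class II genes in WT and for 5 of 5 in each mutant, against 61.9% of all genes in WT, 63.2% in Ep300Δ/Δ, 62.3% in Tet2-/-, and 62.7% in Ep300Δ/ΔTet2-/-. By H3K4me3 alone, both of the class II genes without a WT promoter peak had one in each mutant, against 5.61% of 8360 genes in Ep300Δ/Δ, 3.60% in Tet2-/-, 4.93% in Ep300Δ/ΔTet2-/-, and 1.85% in all 3. The count of 2 depended on weak calls. It was 2 with promoters of 1.5 kb, with the outer start alone, and with peaks of q at most 0.05, it was 1 (H2-Aa) with promoters of 0.5 kb and with lists of equal length, and it was 0 with only peaks of −log10 q of at least 5. In each of those settings no other protein-coding gene met the rule.

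H2-Ab1, the beta chain of I-A (chr17:34257689-34269419, plus strand), was the single class II gene with an H3K27ac promoter peak in WT. That peak, 566 bp wide, was among the weakest of its list at percentile 1.5. It spanned 34264774 to 34265339 and did not reach the coding starts, which lie at 34263209 and 34263250. In Ep300Δ/Δ a peak of 334 bp at percentile 47.9 began at 34263230, between these starts, and the downstream peak of WT was not called. In Tet2-/- both positions were called, at percentiles 6.5 and 21.2, and both were called again in Ep300Δ/ΔTet2-/-, at 11.6 and 16.5. H3K4me3 differed little in extent between genotypes: 1 peak of 2398 to 2564 bp covered both starts in each list, at percentiles between 63.5 and 78.5. Acetylation over the coding start at 34263250 was therefore called in the 3 mutants and not in WT, on a promoter that carried broad H3K4me3 in all 4. No mutant H3K27ac peak reached the start at 34263209.

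H2-Eb1, the beta chain of I-E (chr17:34305867-34316674, plus strand), had an H3K27ac peak at its promoter in Ep300Δ/Δ alone, 332 bp wide, at percentile 35.6 and with its summit 6 bp from a start. Its −log10 q was 4.82, so with only peaks of at least 5 it was not called, and 3 of 5 class II promoters were left in Ep300Δ/Δ. Its H3K4me3 peak did not lie at the outer start in any list. It lay inside the gene, from 34309316 to 34310285 in WT, near the start of a transcript with a retained intron at 34309575, and stood at percentiles of 63.1 in WT, 71.8 in Ep300Δ/Δ, 79.5 in Tet2-/-, and 63.9 in Ep300Δ/ΔTet2-/-. An antisense gene, Gm20513, overlaps the first part of H2-Eb1, and ChIP-Seq does not tell strands apart.

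**Figure D2:**
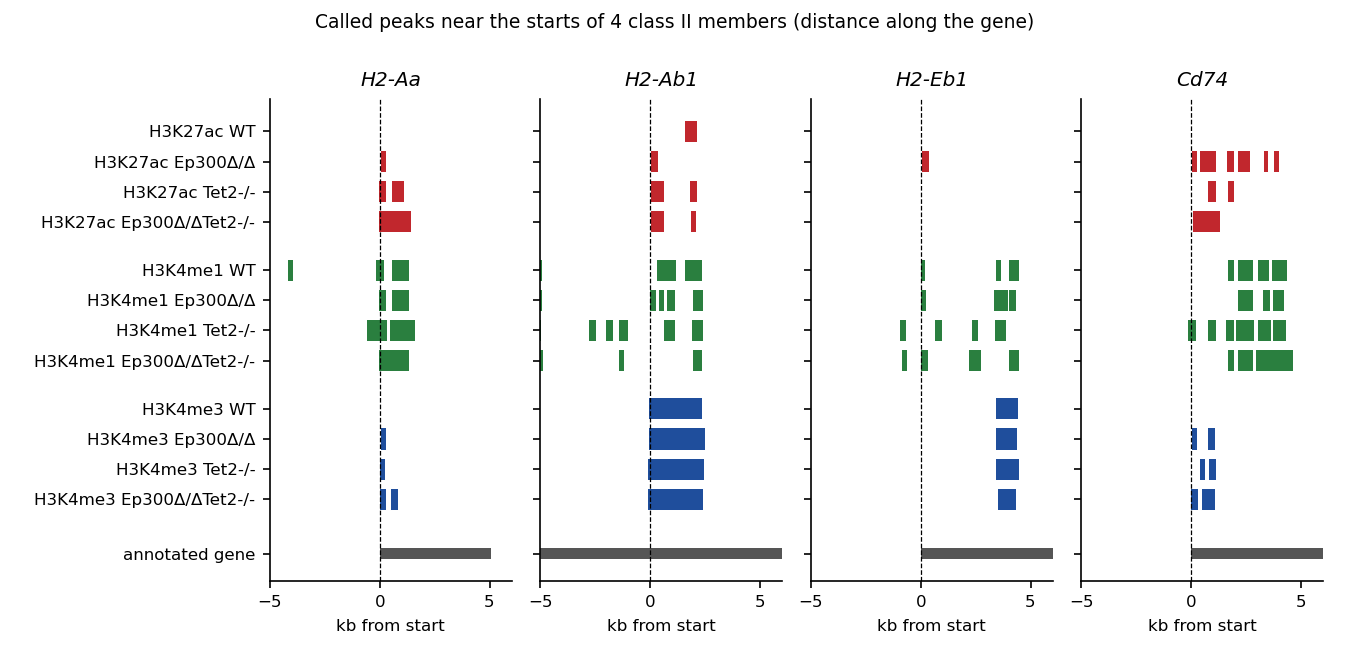
Called peaks within 5 kb upstream and 6 kb downstream of the start of H2-Aa, H2-Ab1 (its first coding start), H2-Eb1, and Cd74, drawn as bars against distance in kb along the gene; each row is 1 mark in 1 genotype, and the gray bar is the annotated gene. H3K27ac bars stand at the dashed start line of H2-Aa in the 3 mutants and not in WT, and Cd74 has no H3K27ac or H3K4me3 bar in WT.

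Ciita, the class II transactivator (chr16:10480059-10528418, plus strand), held no H3K27ac peak in any of the 4 lists across its 68360-bp window. It has several starts, which are used in different cell types, and the H3K4me3 peak lay at the group of starts from 10489746 to 10489783 in all 4 genotypes, with its summit between 14 and 56 bp away. Its percentile was 32.4 in WT, 18.2 in Ep300Δ/Δ, 49.6 in Tet2-/-, and 58.8 in Ep300Δ/ΔTet2-/-. H3K4me1 covered 1394 bp of the Ciita window in WT, 1875 bp in Ep300Δ/Δ, 5235 bp in Tet2-/-, and 5915 bp in Ep300Δ/ΔTet2-/-. The lists from mice without Tet2 thus held the 2 wider spans, which included peaks upstream of the outer start, between 10475583 and 10476813 in Tet2-/- and from 10475552 to 10476859 in Ep300Δ/ΔTet2-/-, where the other genotypes had none.

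The class II windows, which hold 176151 bp, had 2 distinct H3K27ac peaks in WT, 9 in Ep300Δ/Δ, 7 in Tet2-/-, and 5 in Ep300Δ/ΔTet2-/-, covering 1069, 3115, 2875, and 3824 bp. The class I windows, which hold 123268 bp, had 17, 17, 12, and 10 peaks, covering 16065, 12344, 14726, and 12515 bp. The numbers of peaks in the class I windows were thus equal or lower in the mutants, where those in the class II windows were higher. Between H2-Aa and H2-Eb1, 1 further H3K27ac region lay about midway, in an intron of Gm20513: a WT peak from 34296369 to 34296871 at percentile 36.5, one in Tet2-/- from 34296360 to 34296837 at percentile 44.6, none in Ep300Δ/Δ, and in Ep300Δ/ΔTet2-/- only a peak beside it, from 34295824 to 34296097, at percentile 9.4. This region was absent in the list in which the most class II promoters were acetylated.

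**Figure D3:**
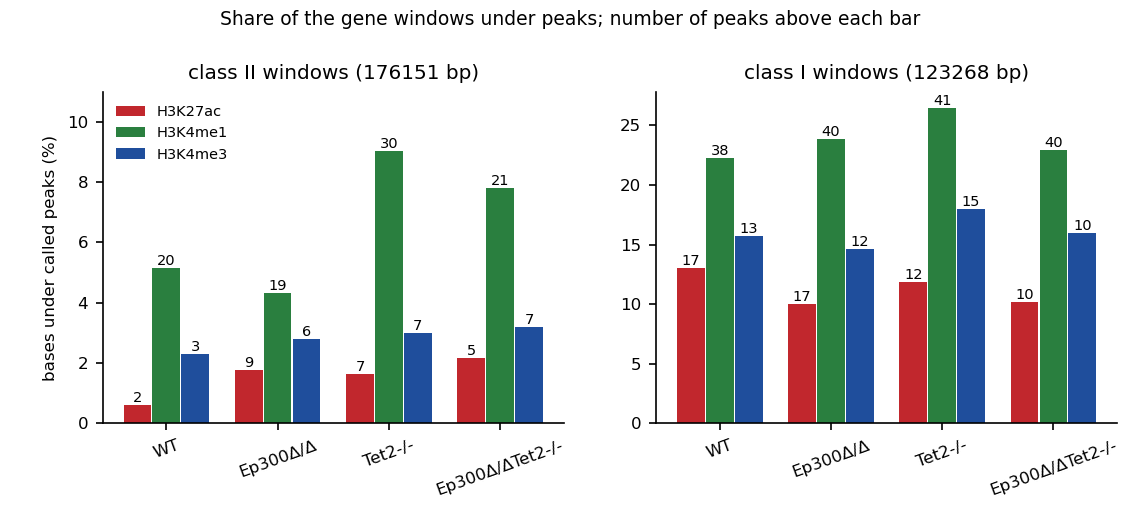
Share of bases under called peaks (percent, vertical axis) in the class II and class I windows for each genotype and mark, with the number of distinct peaks above each bar. The 2 panels have different scales; class II H3K27ac bars run from 0.607% in WT to 2.17% in Ep300Δ/ΔTet2-/-, while the class I bars all stand at 10.0% or above.

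Pairs of lists were merged, and a merged region counted as lost or gained when only the first or only the second list held a peak in it. From WT to Ep300Δ/Δ, 2 of 2 class II H3K27ac regions were lost and 9 of 9 were gained, against 39.7% lost and 12.8% gained over all regions. With windows of 50 kb, 4 of 10 were lost (40.0%), close to the share over all regions, and 11 of 17 were gained. With only peaks of −log10 q of at least 5, 3 of 3 were gained. Of the 9 gained regions, 6 lay at Cd74, so they were not independent of each other. The exact 95% interval for the gained share, which covers counting error only, ran from 66.4% to 100%. From WT to Tet2-/-, 0 of 2 were lost and 5 of 7 were gained (interval 29.0% to 96.3%), against 35.6% and 20.3%. From WT to Ep300Δ/ΔTet2-/-, 1 of 2 was lost and 4 of 5 were gained (28.4% to 99.5%), against 48.9% and 13.9%. From Tet2-/- to Ep300Δ/ΔTet2-/-, 2 of 6 were lost and 1 of 5 was gained, against 37.8% and 15.0%, with an interval of 0.505% to 71.6% for the gained share. With a peak within 500 bp counted as present, 0 of 6 were lost. The comparisons with WT share its list, in which only 2 class II regions could be matched, so that at least 7 of 9, 5 of 7, and 3 of 5 had to count as gained. Regions are not replicates of a genotype, and the intervals are no test between genotypes.

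In the class I windows no H3K27ac region was gained in any of the 4 comparisons: 0 of 14 in Ep300Δ/Δ, 0 of 11 in Tet2-/-, and 0 of 9 in Ep300Δ/ΔTet2-/- against WT, and 0 of 8 in Ep300Δ/ΔTet2-/- against Tet2-/-. The intervals reached up to 23.2%, 28.5%, 33.6%, and 36.9%, and each held the share over all regions (12.8%, 20.3%, 13.9%, and 15.0%). Lost class I regions were 3 of 17 (17.6%, interval 3.80% to 43.4%) in Ep300Δ/Δ, 3 of 14 (21.4%, 4.66% to 50.8%) in Tet2-/-, and 6 of 15 (40.0%, 16.3% to 67.7%) in Ep300Δ/ΔTet2-/-, all against WT. The step from Tet2-/- to Ep300Δ/ΔTet2-/- lost 3 of 11 (27.3%, 6.02% to 61.0%). The shares lost over all regions were 39.7%, 35.6%, 48.9%, and 37.8%, within each of these intervals. The same 3 WT peaks were missing from all 3 mutants: 2 near Psmb8, at percentiles 38.2 and 6.8, and 1 near Trim69 in the B2m window, at percentile 1.0. Each lies nearer to the coding start of that neighbor than to one of the 5 genes, and with only the regions nearest to one of the 5, 0 of 13 were lost in Ep300Δ/Δ and 0 of 10 in Tet2-/-. The other 3 regions lost in Ep300Δ/ΔTet2-/- lay at Tap2 (2) and upstream of H2-D1 (1), and the same 3 made up the loss from Tet2-/- to Ep300Δ/ΔTet2-/-.

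H2-D1 (chr17:35262730-35267499, plus strand) and H2-K1 (chr17:33996017-34000347, minus strand), the heavy chains, held strong H3K27ac peaks at their starts. For H2-D1 the strongest stood at percentile 95.9 in WT, 93.3 in Ep300Δ/Δ, 96.5 in Tet2-/-, and 94.0 in Ep300Δ/ΔTet2-/-. For H2-K1 it stood at 91.7, 90.4, 77.8, and 93.6 in the same order, so the lowest value, in Tet2-/-, still lay in the upper part of its list. Upstream of H2-D1, the WT list held 3 intergenic H3K27ac peaks between 35257690 and 35259982. Ep300Δ/Δ also held 3. In Tet2-/- and Ep300Δ/ΔTet2-/- 1 wide peak, of 1187 and 1224 bp, took the place of the outer 2, so that 1 region differed: the peak nearest the gene was missing in the double mutant alone. B2m, the light chain (chr2:122147686-122153083, plus strand), held a peak over its start in each list, at 92.6 in WT, 90.6 in Ep300Δ/Δ, 89.8 in Tet2-/-, and 93.5 in Ep300Δ/ΔTet2-/-, with its summit 178 to 187 bp downstream in all 4. H3K27ac covered all 300 bases of the B2m promoter in 3 lists and 204 of them in Ep300Δ/Δ.

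The transporter genes Tap1 (chr17:34187553-34197225) and Tap2 (chr17:34203527-34216321), both on the plus strand, lie side by side with the immunoproteasome genes Psmb9 and Psmb8, and their windows shared 65 peaks over all lists. The strongest peak at the Tap1 promoter stood at 92.8 in WT, 88.1 in Ep300Δ/Δ, 96.9 in Tet2-/-, and 92.5 in Ep300Δ/ΔTet2-/-, and in all 4 its summit was nearer to the start of Psmb9 than to that of Tap1. The Tap2 values were 87.2, 86.7, 83.4, and 85.1 in the same order. An intronic H3K27ac region of Tap2 was called in WT (34210285 to 34210700, percentile 32.1), in Ep300Δ/Δ at percentile 5.2 with a −log10 q of 0.523, and in Tet2-/- at percentile 61.6, and not in Ep300Δ/ΔTet2-/-. H2-K1 and H2-D1 have near-identical relatives, and the reads were filtered on mapping quality, so stretches shared between copies could be undercounted. Whether such undercounting differed between the 4 genotypes was not tested.

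**Figure D4:**
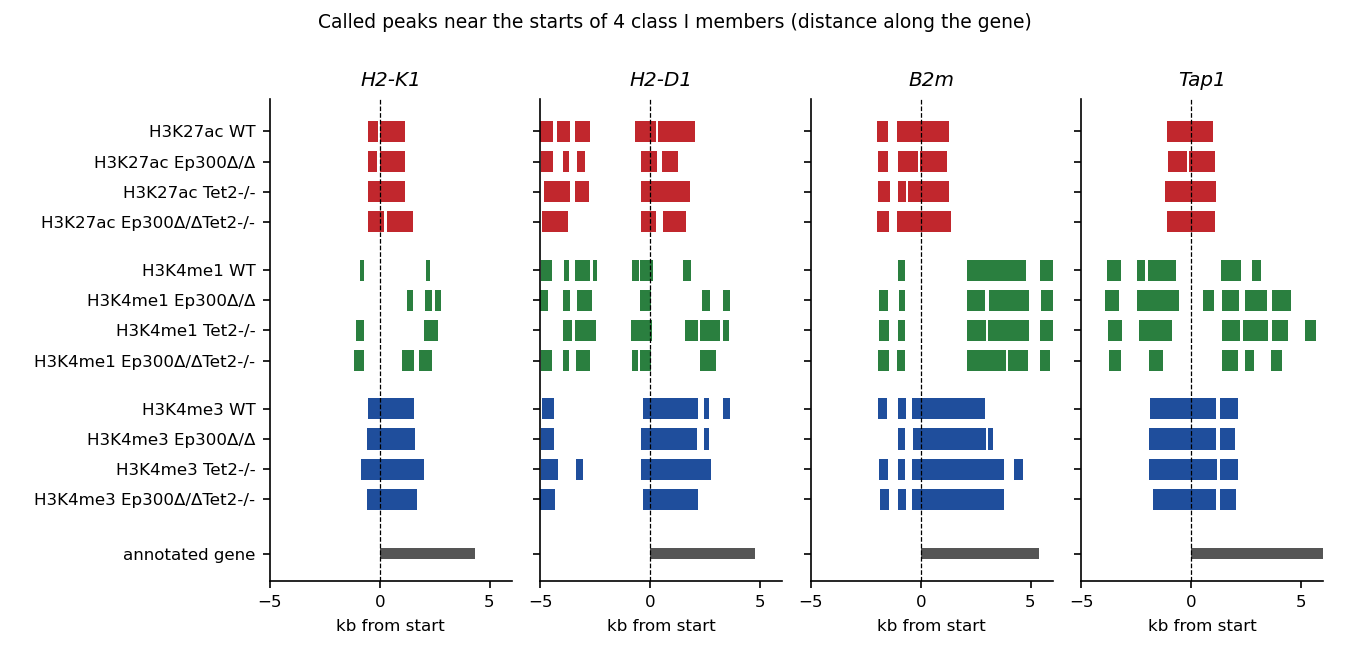
Called peaks within 5 kb upstream and 6 kb downstream of the outer start of H2-K1, H2-D1, B2m, and Tap1, drawn as in the class II map. H3K27ac and H3K4me3 bars cover or flank the dashed start line in all 4 genotypes, and H3K4me1 bars mostly lie to either side.

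At the promoters H3K4me1 was called for all 10 genes in all 4 lists, against 53.4% of all protein-coding genes. H3K4me3 was called in all 4 lists for 8 of the 10, against 60.1%, and H3K27ac for 6 of the 10, against 40.0%. All class II promoters but that of H2-Ab1 thus differed from class I in the presence of H3K27ac, and 2 differed in that of H3K4me3. None differed in the presence of H3K4me1. None of the 3 WT H3K4me3 regions in the class II windows was lost in any mutant, against 15.4% of all regions in Ep300Δ/Δ, 11.1% in Tet2-/-, and 15.0% in Ep300Δ/ΔTet2-/-. Gained H3K4me3 regions were 3 of 6 in Ep300Δ/Δ, 4 of 7 in Tet2-/-, and 4 of 7 in Ep300Δ/ΔTet2-/-, against 11.1%, 13.6%, and 13.6%. From Tet2-/- to Ep300Δ/ΔTet2-/-, 1 of 6 was lost and 2 of 7 were gained, against 13.3% and 9.45%. Class I windows gained 1 of 11, 3 of 14, and 0 of 10 H3K4me3 regions against WT.

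H3K4me1 covered 5.16% of the class II windows in WT, 4.33% in Ep300Δ/Δ, 9.02% in Tet2-/-, and 7.80% in Ep300Δ/ΔTet2-/-, whereas it covered between 22.3% and 26.5% of the class I windows. Against WT, 4 of 18 class II H3K4me1 regions were gained in Ep300Δ/Δ (interval 6.41% to 47.6%), 15 of 30 in Tet2-/- (31.3% to 68.7%), and 8 of 21 in Ep300Δ/ΔTet2-/- (18.1% to 61.6%). The shares over all regions were 24.1%, 26.8%, and 26.4%. Lost regions were 6 of 20, 5 of 20, and 5 of 18, against 36.7%, 28.6%, and 35.8%. From Tet2-/- to Ep300Δ/ΔTet2-/-, 9 of 25 were lost and 4 of 20 were gained, against 31.1% and 23.4%.

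The other genes of both pathways were read from a list of known pathway genes. All 19 further class I genes, among them Psmb8, Psmb9, Psme1, Tapbp, and Nlrc5, which encodes the class I transactivator, held an H3K27ac promoter peak in all 4 lists, against 40.0% of all genes. Of the 9 further class II genes found in the annotation, 6 were called in WT, 7 in Ep300Δ/Δ, 5 in Tet2-/-, and 6 in Ep300Δ/ΔTet2-/-, against 47.3%, 45.0%, 46.4%, and 43.1% of all genes. H2-DMb1, a chain of the peptide exchange factor H2-DM, was called in Ep300Δ/Δ at percentile 52.0 and in Ep300Δ/ΔTet2-/- at 1.9, and in neither WT nor Tet2-/-. Lgmn, a lysosomal protease that cuts the invariant chain, was called in Ep300Δ/Δ alone, at 36.5, and March1, which marks class II molecules for breakdown, in WT alone. H2-Eb2 had no call in any list. Of the 5 called in all 4 lists, H2-Ob stood at percentiles 93.3 in WT, 42.5 in Ep300Δ/Δ, 80.7 in Tet2-/-, and 60.9 in Ep300Δ/ΔTet2-/-. H2-Oa stood at 63.4, 18.7, 36.1, and 20.6, and H2-DMb2 at 81.5, 78.1, 31.6, and 63.1. H2-DMa also ranked lower in each mutant than in WT (98.0, 96.6, 92.0, and 97.6). Ctss ranked higher in each (46.7, 47.3, 54.9, and 72.1). Of the 10 factors that act on these promoters, 10, 9, 10, and 9 were called in the order WT, Ep300Δ/Δ, Tet2-/-, Ep300Δ/ΔTet2-/-, against the same shares of all genes. The exception was Rfxap, a subunit of RFX, which stood at percentile 22.6 in WT and 12.8 in Tet2-/- and was not called in the 2 lists without Ep300. Of the 4 further genes whose calls differed, H2-DMb1 had a call in 2 mutants and Lgmn in 1 but not in WT, and none had one in all 3 mutants and not in WT.

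Likeness in pattern, which says nothing of shared control, was measured as the Euclidean distance between a gene's promoter percentiles over the 12 lists (0 where no peak was called) and the median of the 5 genes of a class. Outside the 10 genes, H2-DMb1 was the nearest to the class II median, at a distance of 40.8, followed by Rdh12 (48.4), Robo3 (49.6), and Tnfaip8l1 (51.2). The class II genes themselves stood at 66.0 to 77.5 from their median, farther than any of these genes. The nearest to the class I median were Cactin (17.1), Pim1 (17.8), Fkbp15 (18.3), Ifnar2 (18.9), and Dus3l (19.8), and the class I genes themselves stood at 28.2 to 105.4, with H2-K1 the farthest.

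Because class II genes are known from mature cells, lists of marker genes for the cells that depletion could leave behind were read in the same way. Of all protein-coding genes, 47.3% held an H3K27ac promoter peak in WT, 45.0% in Ep300Δ/Δ, 46.4% in Tet2-/-, and 43.1% in Ep300Δ/ΔTet2-/-. H3K27ac was called at 3 of 8 B cell markers in WT, 2 in Ep300Δ/Δ, 1 in Tet2-/-, and 1 in Ep300Δ/ΔTet2-/-, with Cd79a, Ms4a1, Pax5, Ebf1, and Cd22 in none. Dendritic cell markers were called at 5, 5, 5, and 2 of 8, with Clec10a and Cd209a in none, and Xcr1 called in Ep300Δ/Δ and Tet2-/- but not in WT. Clec9a went the other way, called in WT alone, and Itgax and Zbtb46 were called in all lists but Ep300Δ/ΔTet2-/-. Macrophage markers were called at 2, 1, 2, and 0 of 8, with Adgre1, C1qa, C1qb, C1qc, Mertk, and Fcgr1 in none. T cell markers were called at 3, 3, 4, and 2 of 8, with Cd3e, Cd3g, Cd4, and Cd8a in none, and progenitor markers at 7, 7, 6, and 6 of 8. By H3K4me3 the B cell markers were called at 5, 4, 2, and 1 of 8, dendritic cell markers at 4, 4, 4, and 3, macrophage markers at 4 in each list, and T cell markers at 2, 3, 3, and 3, where Cd3g was called in each mutant and not in WT. The H3K4me3 shares over all genes were 61.9%, 63.2%, 62.3%, and 62.7% in the same order. By H3K4me1 the counts were higher in each mutant than in WT for macrophage markers (4, 5, 7, and 6 of 8) and dendritic cell markers (5, 6, 6, and 6 of 8), and were 7, 6, 6, and 7 of 8 for B cell markers and 4, 4, 5, and 4 of 8 for T cell markers. In all 4 lists H3K4me1 was called at 3, 4, 5, and 4 of 8 of these, in that order, against 53.4% of all genes. The part of such cells in the class II calls was not tested. Peaks at low-ranking promoters can be missed, for these markers as for the class II genes.

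**Figure D5:**
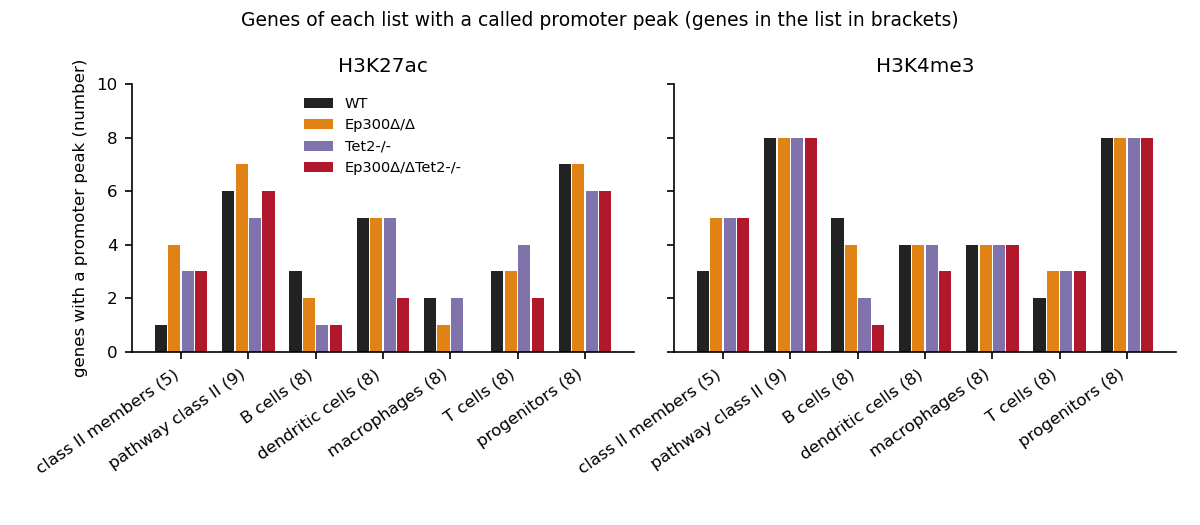
Number of genes with a promoter peak (vertical axis) in each list of genes, by genotype, for H3K27ac (left) and H3K4me3 (right); the size of each list is in brackets. For H3K27ac, in the order WT, Ep300Δ/Δ, Tet2-/-, Ep300Δ/ΔTet2-/-, the class II genes stand at 1, 4, 3, and 3, B cell markers at 3, 2, 1, and 1, dendritic cell markers at 5, 5, 5, and 2, macrophage markers at 2, 1, 2, and 0, and T cell markers at 3, 3, 4, and 2.

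Each list also held peaks that miss the stated threshold of q below 0.05. In H3K27ac they were 7.17% of the Ep300Δ/Δ list and between 0.780% and 0.900% of the other 3. With these peaks left out, the class II promoter counts were again 1, 4, 3, and 3. Peak lists do not give sequencing depth, so weak marks that missed the peak caller's limit could not be seen.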

How the data were processed

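ChIP-Seq peak lists of H3K27ac, H3K4me1, and H3K4me3 were analyzed for 4 genotypes, 1 library each. Of the 20 samples of the series, the H3 and H3K27me3 samples were not analyzed here. The authors trimmed reads (cutadapt 1.15), aligned them to mm10 (BWA 0.7.13), removed duplicates (Picard), filtered on mapping quality, and called peaks on each library against its H3 library (MACS2 2.1.1.20160309), with a stated q below 0.05. The tool versions come from the submitters' processing notes and the methods. The deposited values of a peak are its fold enrichment over H3 at the summit, the −log10 of its p-value and q-value, a score that follows the p-value, and the summit offset in bp. The −log10 p-value and the score of the deposited lists were not used. A Drosophila spike-in was added, but the lists are not scaled by it, so fold and −log10 q were read within a list only. The labels and the methods differ on single-end or paired-end reads and on the H3 antibody. Mapping filters and the H3 background can remove peaks in near-identical MHC genes.

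Peaks were matched to GENCODE gene bodies with 10 kb on either side, and to promoters of 3 kb on either side of any annotated start, with an overlap of at least 1 bp. Percentiles give the share of a list's peaks with a fold at or below that of the peak. Lists were merged in pairs, so touching peaks can join. Exact (Clopper-Pearson) 95% intervals cover counting error only, and neighboring regions are not independent. For 15 of 15 pairs of deposited lists, bedtools 2.31.1 gave equal numbers of lost and of gained regions, and 543 of 543 promoter calls were recovered in a simulated pair of lists. Python 3.11.15, pandas 2.3.3, numpy 2.4.6, and scipy 1.17.1 were used. Named genes were the 10 genes, the pathway genes whose H3K27ac promoter call was not the same in all 4 lists or was missing from all, and the 5 genes nearest to each class median, of which 1 is not reported here. Other pathway genes and markers were named as examples after their values were seen. The genes and lists were chosen with earlier results of these data known. Ifi30 of the class II pathway list was not found in the annotation.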

Additional observations from a re-analysis of the deposited data

Results flagged for a closer look

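For 3 measures the libraries with Ep300 deleted moved in opposite directions on the 2 Tet2 backgrounds, and with 1 library each the difference was not tested. The number of class II H3K27ac peaks was higher by 7 in Ep300Δ/Δ than in WT and differed by -2 between Ep300Δ/ΔTet2-/- and Tet2-/-. This holds for the number alone, since the class II length under H3K27ac peaks was larger with Ep300 deleted on both backgrounds (3115 against 1069 bp, and 3824 against 2875 bp), with fewer but wider peaks in Ep300Δ/ΔTet2-/- (median width 612 bp against 372 bp in Tet2-/-). The number of class I H3K4me1 peaks was higher by 2 in Ep300Δ/Δ than in WT and differed by -1 between Ep300Δ/ΔTet2-/- and Tet2-/-. The length of the class I windows under H3K4me1 peaks was larger by 1936 bp in Ep300Δ/Δ than in WT and differed by -4417 bp between Ep300Δ/ΔTet2-/- and Tet2-/-.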

How the results depend on the processing

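No paired analysis was possible because each genotype and mark has 1 library and no result comes from a test. For the same reason no library could be left out. In the first set of alternatives 71 values stayed within the 95% interval of the reported share, or within 1.5 times the reported count, and 9 did not. Of those added after seeing the data 37 did and 7 did not. These intervals are wide, and shares within them still moved. Over the alternatives, lost class II regions ran from 40.0% to 100% for WT to Ep300Δ/Δ (40.0% with windows of 50 kb), from 0 of 2 to 2 of 10 regions for WT to Tet2-/-, and from 0% to 40.0% for Tet2-/- to Ep300Δ/ΔTet2-/-. Lost class I regions ran from 0% to 35.3%, from 0% to 23.1%, and from 9.09% to 35.1% in the same order. The order of the classes changed in places: the lost share was higher in class II than in class I from Tet2-/- to Ep300Δ/ΔTet2-/-, but lower with gene bodies alone (1 of 5 against 2 of 7) and with a peak within 500 bp counted as present (0 of 6 against 1 of 11), and it was lower from WT to Tet2-/-, but higher with windows of 50 kb (2 of 10 against 8 of 45). The cause was not tested where none is named. Class I H3K27ac regions lost from WT were 0% in Ep300Δ/Δ and 0% in Tet2-/- both with lists cut to equal length and with only regions nearest to one of the 5 genes, in place of 17.6% and 21.4%. Class II regions lost from Tet2-/- to Ep300Δ/ΔTet2-/- were 0% when a peak within 500 bp counted as present, in place of 33.3%. The WT count of class II H3K27ac promoters was 0 in place of 1 with promoters of 0.5 kb, with the outer start alone, with peaks of −log10 q of at least 5, and with lists of equal length, since the single peak of H2-Ab1 was weak and inside the gene. Added after seeing the data, gained class II regions were 3 of 3 in Ep300Δ/Δ and 3 of 4 in Tet2-/- with peaks of −log10 q of at least 5, in place of 9 of 9 and 5 of 7. With windows of 50 kb they were 10 of 18 in Tet2-/- and 8 of 12 in Ep300Δ/ΔTet2-/-, in place of 5 of 7 and 4 of 5, so the counts were higher and the shares lower. Genes with both H3K27ac and H3K4me3 in all 3 mutants and neither in WT numbered 1 with promoters of 0.5 kb, 1 with equal lists, and 0 with −log10 q of at least 5, in place of 2. With lists of equal length no class II region was left in WT, so that lost shares from WT to Ep300Δ/Δ and to Tet2-/- had no value. Depth, unknown here, limits every absent call.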
